A study of Mus musculus with 3 samples.

Results

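The genes described here are the D-type cyclins Ccnd1, Ccnd2 and Ccnd3, their kinase partners Cdk4 and Cdk6, and 5 inhibitors, namely Cdkn1a, Cdkn1b, Cdkn2a, Cdkn2b and Cdkn2c. They are 10 of the 21851 protein-coding genes of the GENCODE M21 basic annotation on chromosomes 1 to 19, X and Y, and the rule that selects them uses their names and no measured value. Open chromatin was measured by DNase-seq in MEL cells, an immortalized mouse erythroleukemia line; in this assay an enzyme cuts DNA where it is not packed in nucleosomes, and sites of dense cutting are called as peaks. The 3 libraries fall into 2 biological replicates of the same line. Biological replicate 1 comprised 2 libraries, technical replicates 1 and 3, with a joint peak list, and biological replicate 2 comprised 1 library. The labels give no treatment, genotype change or time point, and they list the age and developmental stage of the line as unknown, so nothing in the design sets 1 condition against another.

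Progression through G1 phase rests on these genes. A D-type cyclin binds CDK4 or CDK6, and the active kinase phosphorylates the RB protein, which then releases the E2F transcription factors that drive S-phase genes. The INK4 inhibitors, made by Cdkn2a, Cdkn2b and Cdkn2c, bind CDK4 and CDK6 themselves, while the CIP/KIP inhibitors p21 (Cdkn1a) and p27 (Cdkn1b) bind cyclin-CDK complexes and act strongly on CDK2. In the erythroid lineage the balance of D cyclins, CDK6 and p27 is tied to the last divisions before red cells mature. MEL cells grow as blocked erythroid precursors.

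All positions are in mm10. A peak in the deposited lists is 150 bp wide and carries a score from the authors, which ran from 1 to 150 in replicate 1 and from 1 to 147 in replicate 2; what the score measures is not given in the sources used here. The list of replicate 1 held 281048 peaks on these chromosomes, with a median score of 73, and that of replicate 2 held 88879, with a median score of 32. The depth behind the lists is unknown, so a peak found in 1 list alone cannot be told apart from a difference in how deeply that list was called, and scores are ranked only within a list. With 1 list per biological replicate no value has a standard deviation, and no test between groups was possible. A promoter peak is a peak whose centre lies within 1000 bp of a protein-coding start, and the window of a gene is the gene with 50 kb on either side. Distances run from a start to the centre of a peak and are negative upstream. As a check on the cell line with marker lists that, like the genes, were picked with earlier results of these data known, 8 of 8 genes of an erythroid marker list had a promoter peak in replicate 1 and 7 of 8 in replicate 2, the exception being Alas2. Of 8 genes of other tissues, 1 had a promoter peak in replicate 2, namely Alb, with a score of 12 there and 48 in replicate 1.

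The sequences below are those of peaks in replicate 2 that the account of each gene turns on. Most are the highest-scoring peak of their gene at a start, in an intron or outside the gene; the p16Ink4a peak is shown beside that of p19Arf, and a Cdk6 peak and the Cdkn2c peak were picked for a word they hold. They were read from the GRCm38.p6 reference, the sequence of mm10, on the strand of the gene, 5′ to 3′. Stretches annotated as untranslated region were left out, except that the Cdkn2c bases were not screened for them. Those bases come from a peak centred 418 bp downstream of the Cdkn2c-202 start. Capitals mark short words known from the binding sites of transcription factors. A word is a match of letters, not a bound site.

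In the Ccnd3 peak at chr17:47595596-47595745 on the plus strand, centred at -397 bp from the start of the transcript Ccnd3-208, capitals mark a GATA word and a RUNX word, and in the intronic Ccnd3 peak at chr17:47521656-47521805 on the plus strand they mark a KLF word and a GATA word.
Ccnd3 internal start: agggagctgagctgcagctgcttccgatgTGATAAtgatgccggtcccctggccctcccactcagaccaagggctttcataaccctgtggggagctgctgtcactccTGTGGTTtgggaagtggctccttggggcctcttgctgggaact
Ccnd3 intron: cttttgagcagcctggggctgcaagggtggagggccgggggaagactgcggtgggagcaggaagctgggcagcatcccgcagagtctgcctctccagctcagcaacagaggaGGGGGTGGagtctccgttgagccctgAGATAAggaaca

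The peak at the Cdk4 start, chr10:127063316-127063465 on the plus strand, is shown for its 3 copies of the E-box CACGTG, the word bound by MYC and related proteins, in capitals.
Cdk4 start: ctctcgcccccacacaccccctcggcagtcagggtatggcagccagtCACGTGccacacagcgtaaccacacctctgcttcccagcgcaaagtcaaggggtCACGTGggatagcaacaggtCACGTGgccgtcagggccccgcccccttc

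For Cdk6 the strongest peak, chr5:3362156-3362305, and the strongest intronic peak with a GATA word, chr5:3497656-3497805, are both on the plus strand. Capitals mark a CCAAT word, read here from its other strand, in the upper sequence and a RUNX and a GATA word in the lower.
Cdk6 intron, strongest peak: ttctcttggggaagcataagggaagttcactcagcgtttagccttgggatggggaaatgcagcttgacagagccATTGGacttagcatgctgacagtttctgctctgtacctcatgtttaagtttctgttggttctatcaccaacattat
Cdk6 intron, GATA peak: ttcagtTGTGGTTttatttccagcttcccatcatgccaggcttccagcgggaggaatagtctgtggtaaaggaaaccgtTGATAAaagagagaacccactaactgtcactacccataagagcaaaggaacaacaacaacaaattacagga

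For the CIP/KIP genes the sequences are the intronic peak of Cdkn1a at chr17:29095436-29095585 and the strongest peak beyond Cdkn1b at chr6:134928596-134928745, both on the plus strand. Capitals mark a GC box and an AP-1 word in Cdkn1a, and a KLF word and a pair of CCAAT words beyond Cdkn1b.
Cdkn1a intron: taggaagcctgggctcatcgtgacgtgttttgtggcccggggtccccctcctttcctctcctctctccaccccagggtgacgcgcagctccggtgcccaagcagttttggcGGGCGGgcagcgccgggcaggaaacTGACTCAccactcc
Cdkn1b downstream: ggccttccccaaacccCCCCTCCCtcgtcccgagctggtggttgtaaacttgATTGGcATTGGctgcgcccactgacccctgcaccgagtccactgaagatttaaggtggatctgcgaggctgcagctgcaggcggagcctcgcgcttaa

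For the INK4 genes the sequences come from the minus strand and show the stretch of the peak at the p19Arf start of Cdkn2a at chr4:89294654-89294705 (a GC box in capitals), the peak at the p16Ink4a start of Cdkn2a at chr4:89282216-89282365 (overlapping KLF words), the stretch of the Cdkn2b peak at chr4:89311040-89311145 (a CRE), and 30 bases of the Cdkn2c promoter at chr4:109666763-109666792 (an E2F word).
Cdkn2a p19Arf start: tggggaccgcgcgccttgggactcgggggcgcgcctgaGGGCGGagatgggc
Cdkn2a p16Ink4a start: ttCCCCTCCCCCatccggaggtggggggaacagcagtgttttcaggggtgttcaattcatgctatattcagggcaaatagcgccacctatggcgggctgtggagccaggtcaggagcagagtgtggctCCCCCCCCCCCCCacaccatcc
Cdkn2b start: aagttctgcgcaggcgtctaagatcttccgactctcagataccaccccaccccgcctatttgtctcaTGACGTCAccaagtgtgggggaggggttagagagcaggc
Cdkn2c E2F word: ggggcccggccTTCCCGCtcccgcggcgcc

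Of the 10 genes, 9 had a promoter peak in replicate 1, against 58.3% of all protein-coding genes, and 8 had it in replicate 2, against 49.4%. The same 8 genes had it in both lists, against 49.4% of all genes. Ccnd1 was the gene without a promoter peak in either list, and Cdk6 was the gene with promoter peaks in replicate 1 alone, a state that 8.87% of all genes shared. Starts rich in CpG are open more often than others, so the fairer background for 7 of the 10 genes is that of CpG-rich starts, taken as an observed over expected CpG ratio above 0.6 and a GC content above 55% in the 500 bp on either side of the most upstream start. Of those 7 genes, 6 had a promoter peak in replicate 1, against 80.5% of all CpG-rich starts, and 5 had it in replicate 2, against 74.8%. The promoters of Ccnd2, Ccnd3 and Cdkn1a fell outside that class by their most upstream start and all had a promoter peak in both lists. The class depends on the start used. Cdkn1a-201 (ratio 0.622, GC 58.3%) and Ccnd3-205 (0.842, 60.8%) had a peak in both lists and are CpG-rich by the same limits. The most upstream start of Cdkn1a had no peak in replicate 2. In the other direction, Cdkn2c-201, the higher-scoring start of Cdkn2c, has a GC content of 49.4% and falls outside the class. With 10 genes, these shares are a description only. By role, all 5 inhibitors, 2 of 3 cyclins and 1 of 2 kinases had a promoter peak in both lists.

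The strongest promoter score of the 9 genes with a peak had a median of 139 in replicate 1, against 139 over the 12732 genes with a promoter peak. In replicate 2 the median over 8 genes was 58.5, against 63 over 10804 genes. Ccnd3 stood highest, with 150 and 110 in replicates 1 and 2, and its score in replicate 2 was above that of 98.1% of genes with a promoter peak. Cdk4 followed with 142 and 79, above 73.2% of genes in replicate 2. Cdkn1a (138 and 65) and Ccnd2 (143 and 62) lay close to the middle of the list. Below it came Cdkn2b (132 and 55), Cdkn1b and Cdkn2a (139 and 52 each) and Cdkn2c (143 and 47), the last above 25.8% of genes in replicate 2. The order of the 8 genes was not the same in both lists, since Cdkn2c tied with Ccnd2 in replicate 1 and was lowest in replicate 2, and in replicate 1 all scores but that of Cdk6 lay within the narrow range of 132 to 150. Neighbours in this order therefore cannot be ranked, and the place of Ccnd3 at the top was the feature found in both lists. It rests on an internal start, that of Ccnd3-208. The score is the highest over all starts of a gene, and Ccnd3 has 6 starts against at most 4 for the others. At its most upstream start Ccnd3 scored 117 and 31, below the highest score of every other gene with a promoter peak in the same list.

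**Figure D1:**
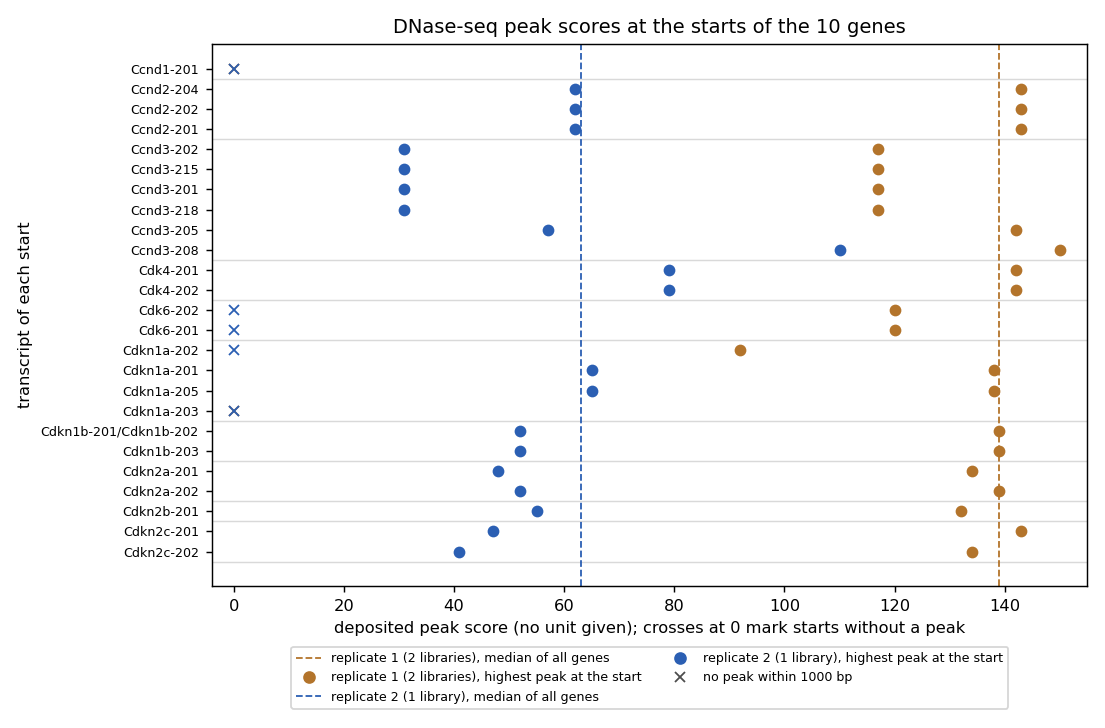
The score of the highest peak within 1000 bp of each protein-coding start of the 10 genes, with 1 row per start and the deposited score on the horizontal axis; dots are the values of replicate 1 and replicate 2, crosses mark starts with no peak, and dashed lines are the medians of all genes with a promoter peak (139 and 63). Ccnd3-208 has the highest score in both lists (150 and 110), and the Ccnd1 start has no peak in either.

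Ccnd1 encodes cyclin D1, the D cyclin that growth factor signals induce in many adherent cell types. Its only protein-coding start is CpG-rich, with an observed over expected ratio of 0.667, and all 32-bp words within 1000 bp of it occur once in the genome. Whether reads from it were placed was not tested. Neither list had a peak or a hotspot, the broader called region, within 1000 bp of that start. In the 50 kb upstream replicate 1 had 1 peak, with a score of 41, and replicate 2 had 0. At most 1 upstream peak in replicate 1 was found for 17.9% of all genes, and no upstream peak in replicate 2 for 22.2%. Among the 10 genes, each held for Ccnd1 alone. Inside the gene replicate 1 had 3 peaks, the highest at 96 and 7338 bp downstream of the start, and replicate 2 had none. The 3 peaks of replicate 2 in the window all lay beyond the gene, and 2 of them were at the promoter of LTO1, 24778 bp and 25078 bp from the Ccnd1 start, with scores of 54 and 45. The window held 25 peaks in replicate 1 and 3 in replicate 2, the lowest counts of the 10 genes in both lists.

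Ccnd2 encodes cyclin D2, a D cyclin prominent in blood cell precursors. Its 3 annotated starts lie close together and shared a promoter peak that scored 143 in replicate 1 and 62 in replicate 2. The open stretch there was wide. In replicate 1 the hotspot over the start spanned 9492 bp, wider than 99.9955% of the hotspots in that list, and in replicate 2 it spanned 1118 bp, wider than 98.4%. A further peak at -1511 bp scored 149 in replicate 1 and 65 in replicate 2, above the promoter peak itself in both lists, and another at -12011 bp scored 139 and 56. The promoter peak and the peak at -1511 bp lie inside the noncoding gene 9330179D12Rik, which was named after its values were seen. The annotated 5′ end of Ccnd2, at chr6:127152193, lies between the peak at -1511 bp and the protein-coding starts. Inside the gene, a peak 3189 bp downstream of the first start scored 125 and 53, and a peak 4949 bp downstream scored 141 and 51. The strongest peak outside the gene in replicate 2, with 77 against 147 in replicate 1, was at the promoter of Tigar, the nearest other gene and a regulator of sugar metabolism. The window of Ccnd2 held 45 peaks in replicate 1 and 20 in replicate 2, above the counts of 78.9% and 90.8% of all genes.

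Ccnd3 encodes cyclin D3, the D cyclin tied to cell size and the number of divisions in maturing red cell precursors. It had the most peaks of the 10 genes, 97 in replicate 1 and 38 in replicate 2. These counts were above those of 99.2% and 99.6% of all genes. The gene is 94.6 kb long, which enlarges its window, and per 100 kb the counts were 49.8 and 19.5, above 94.6% and 97.1% of all genes. The strong peaks lay in groups near either end of the gene. The upstream start region, used by the long transcripts, was the weaker of its promoters, with 117 in replicate 1 and 31 in replicate 2. The internal start of Ccnd3-205, whose surroundings are CpG-rich with an observed over expected ratio of 0.842, scored 142 and 57. The internal start of Ccnd3-208 scored 150 and 110, and its own surroundings are poor in CpG, with a ratio of 0.199. The overlapping peaks of the 2 lists there, whose sequence in replicate 2 holds the GATA and RUNX words shown above, gave the highest score of any promoter peak of the 10 genes.

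Between these starts the introns of Ccnd3 held 4 peaks with a score above 80 in replicate 2. Counted from the most upstream start, the peak at 3080 bp scored 144 and 93, the peak at 4180 bp scored 144 and 82, the peak at 6200 bp scored 144 and 88, and the peak at 16680 bp scored 146 and 94 in replicates 1 and 2. Near the 3′ end a peak at 93300 bp scored 145 and 67. Each of these had a higher score than the peak at the upstream start in both lists. The peak at 16680 bp holds a GATA and a KLF word, as shown above, and the peak at 3080 bp holds a RUNX word. Outside the gene the strongest peak of replicate 2 was at the promoter of Taf8, a subunit of the general transcription factor TFIID, with 78 against 144 in replicate 1. In replicate 1 it was at the promoter of Bysl, a ribosome assembly factor, with 148 against 72 in replicate 2.

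**Figure D2:**
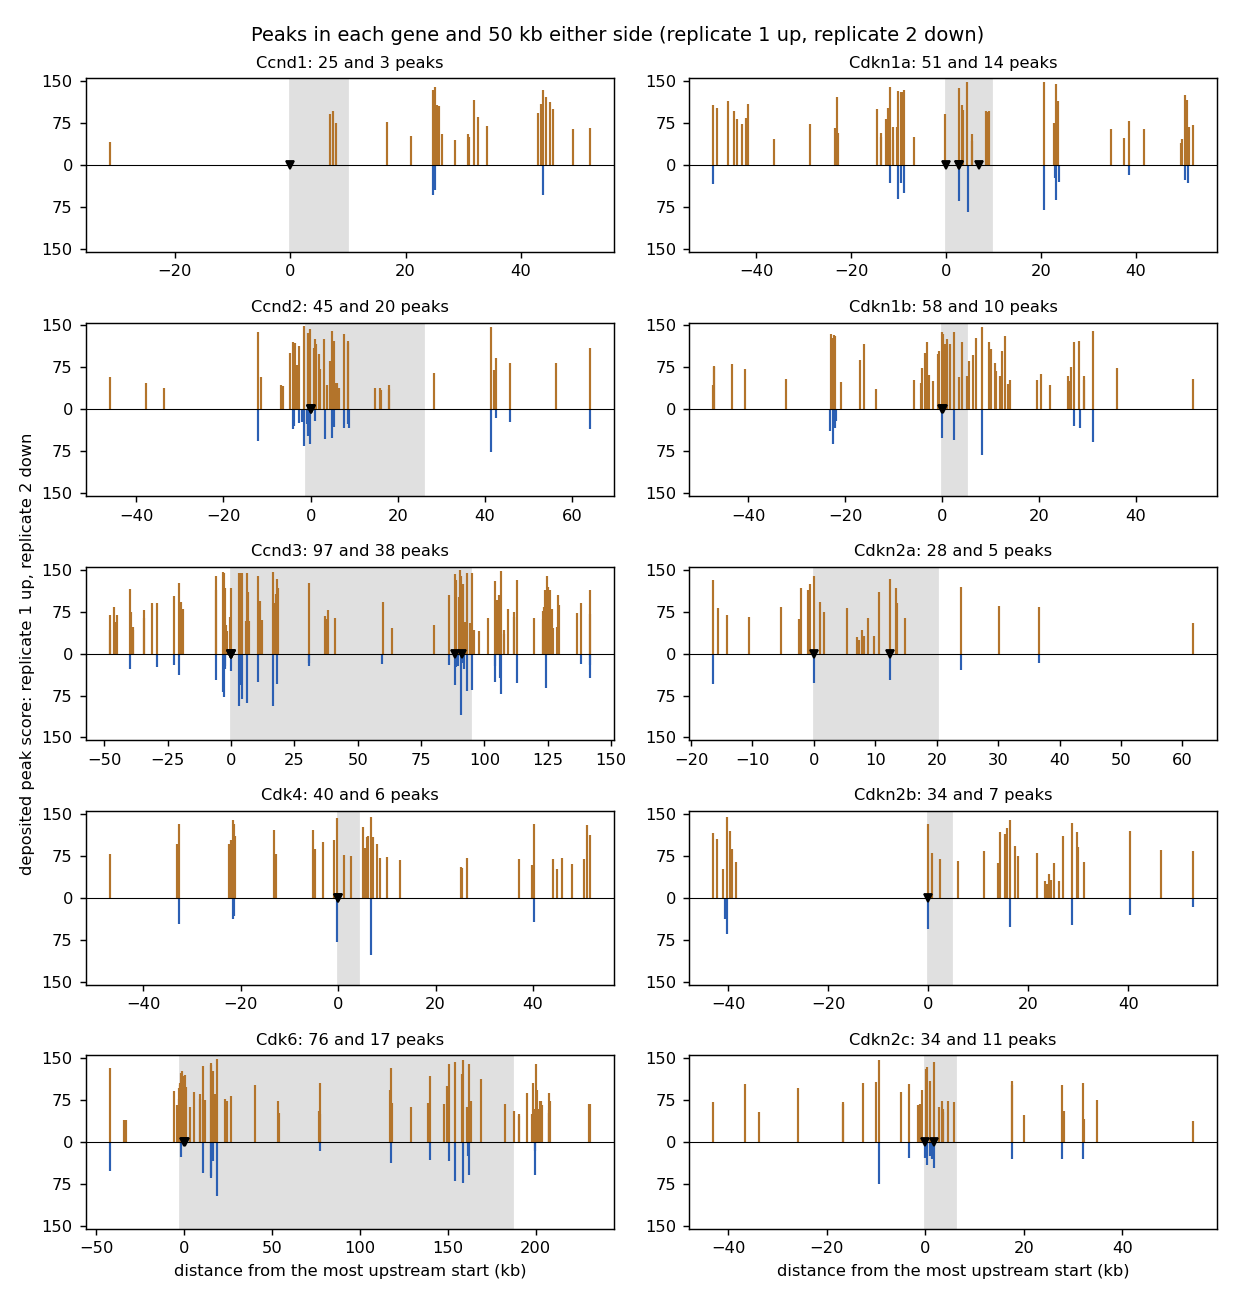
Every peak in the gene and 50 kb on either side for each of the 10 genes, with the distance from the most upstream protein-coding start in kb on the horizontal axis and the deposited score as the length of each line, upwards for replicate 1 and downwards for replicate 2; grey marks the gene, triangles its starts, and each title gives the number of peaks in replicate 1 and replicate 2. Ccnd3 has 97 and 38 peaks in clusters at both ends of the gene, and Ccnd1 has 25 and 3, of which 21 and 3 lie beyond its 3′ end.

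Cdk4 encodes the kinase partner of the D cyclins that most dividing cells express. It is a short gene, and replicate 2 had 1 peak at its start and none elsewhere in the gene. That peak scored 79 in replicate 2, and the overlapping peak of replicate 1 scored 142. It lay at -143 bp from the start of Cdk4-201 in replicate 2 and carried the 3 E-boxes shown above. At least 3 E-boxes were found in 9 of the 18858 promoter peaks of replicate 2, or 0.0477%, a count made after the Cdk4 sequence had been seen. The strongest peak of the window was that of a neighbour. It lay 107 bp from the start of Tspan31, a tetraspanin gene downstream of Cdk4, and 4 bp from the start of the noncoding gene A730063M14Rik, with a score of 102 against 144 in replicate 1. Replicate 1 had 40 peaks in the window of Cdk4, above the count of 71.3% of all genes, and replicate 2 had 6, above that of 32.6%.

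Cdk6 encodes the other D cyclin kinase, which is abundant in blood progenitors. Within 1000 bp of its protein-coding starts, peaks were found in 1 of the lists. Replicate 1 had 6 peaks within 1000 bp of its 2 starts, with scores of 98 to 120, the highest above 21.1% of genes with a promoter peak. Replicate 2 had no peak and no hotspot there, and its nearest peak, at -2122 bp, scored 26. That peak, at chr5:3341696-3341845, lies inside the gene near its annotated 5′ end at chr5:3341485, upstream of both protein-coding starts. The peak of replicate 1 at the same position scored 124. The hotspots of replicate 1 at the promoter were 6 separate pieces, whereas every other start with a hotspot in that list had 1. Part of this sequence also occurs elsewhere. Of the 32-bp words within 1000 bp of the 2 starts, 73.2% and 63.1% occurred once in the genome, against 92.6% to 100% at all other starts of the 10 genes, and copies lay on chromosomes 10 and 13. How the authors treated reads that map to several places is not given in the sources used here, and whether this bears on the broken hotspots or on the missing peaks of replicate 2 was not tested.

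The introns of Cdk6 were open in both lists. The peak at 18338 bp from the most upstream start scored 148 in replicate 1 and 97 in replicate 2, the highest score of the window in both. The peaks at 15038 bp (141 and 61), 15398 bp (138 and 65), 153838 bp (144 and 70) and 158918 bp (147 and 74) were the next highest in replicate 2; in replicate 1 other peaks of the window lay among them. In replicate 2 the peaks at 15398 bp and 153838 bp hold a GATA word, and the peak at 153838 bp also holds the RUNX word shown above. The peak of replicate 1 that overlaps the peak at 15398 bp holds no GATA word. Inside the gene and outside its promoters, replicate 1 had 41 peaks and replicate 2 had 14. Upstream of the gene replicate 2 had 1 peak, and the strongest peak outside the gene, with 58 against 140 in replicate 1, was at the promoter of its downstream neighbour Fam133b. Because the gene is 189.5 kb long, its counts of 76 and 17 correspond to 26.3 and 5.87 per 100 kb, above 63.7% and 43.6% of all genes.

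Cdkn1a encodes p21, an inhibitor that p53 induces after DNA damage and that rises in many differentiating cells. Of its 4 annotated starts, those of Cdkn1a-201 and Cdkn1a-205 shared a promoter peak with 138 in replicate 1 and 65 in replicate 2. At the start of Cdkn1a-202, farther upstream, replicate 1 had a peak of 92 and replicate 2 had none, and at that of Cdkn1a-203 neither list had a peak. The strongest peak of the gene was in an intron, 1730 bp downstream of the start of Cdkn1a-205. It scored 84 in replicate 2, and the overlapping peak of replicate 1 scored 148; its GC box and AP-1 word are shown above. A peak downstream of the gene, 2634 bp from the start of Rab44, a member of the RAB family of GTPases, scored 80 in replicate 2 and 148 in replicate 1, and it holds a GATA word. Upstream, peaks of 60 and 50 in replicate 2 (133 and 135 in replicate 1) lay 1752 bp and 2932 bp from the start of Trp53cor1, a noncoding gene known as lincRNA-p21 and named here after its values were seen. A peak nearer the Trp53cor1 start than these scored 32 in replicate 2. The overlapping peak of replicate 1 scored 139, the highest score upstream of Cdkn1a in that list. The window held 51 peaks in replicate 1 and 14 in replicate 2.

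Cdkn1b encodes p27, the inhibitor that accumulates as cells leave the cycle. Its start scored 139 in replicate 1 and 52 in replicate 2. The hotspot over the start was 4386 bp wide in replicate 1 and 96 bp wide in replicate 2, where its deposited −log10 q was 1.42, just above the lowest value in that list. A peak in an exon, 2458 bp downstream of the start of Cdkn1b-203, scored 139 and 54. The strongest peak of the window lay beyond the gene, 8158 bp downstream of that start, with 148 in replicate 1 and 82 in replicate 2. It was 421 bp from the start of Lockd, a noncoding gene that was named after its values were seen, while the nearest start of another protein-coding gene was that of Gpr19, 30746 bp away. A peak inside Lockd, 31110 bp from the Cdkn1b start, scored 141 and 59. Replicate 1 had 58 peaks in the window, or 55.2 per 100 kb, above 96.6% of all genes, and replicate 2 had 10, or 9.51 per 100 kb, above 68.2%.

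Cdkn2a makes unrelated proteins from separate starts. The transcript Cdkn2a-202 starts upstream and encodes p19Arf, which stabilizes p53, and the other, Cdkn2a-201, encodes p16Ink4a, which binds CDK4 and CDK6. Both starts had a promoter peak in both lists. The p19Arf start, the most CpG-dense of the 10 genes with a ratio of 0.981, scored 139 in replicate 1 and 52 in replicate 2. The p16Ink4a start, with a ratio of 0.537, scored 134 and 48. Cdkn2a had no other peak inside the gene in replicate 2, and 11 in replicate 1, the highest at 110. Cdkn2b, which encodes p15Ink4b and is a target of TGF-beta signalling in other cells, lies next to it and had a promoter peak of 132 in replicate 1 and 55 in replicate 2. The windows of these neighbours share most of their peaks and are not separate observations. Upstream of Cdkn2b a peak scored 65 in replicate 2, at -40252 bp, and 144 in replicate 1, above the scores at all 3 starts of the locus in both lists. It holds a GATA word. The windows of Cdkn2a and Cdkn2b held 28 and 34 peaks in replicate 1 and 5 and 7 in replicate 2.

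Cdkn2c encodes p18Ink4c, an INK4 inhibitor active in blood cell differentiation, and lies elsewhere on the same chromosome. Its 2 starts scored 143 (Cdkn2c-201) and 134 (Cdkn2c-202) in replicate 1 and 47 and 41 in replicate 2. Each list had 6 promoter peaks at, around and between these starts, and the hotspot of replicate 1 over both starts was 4484 bp wide. No other gene of the 10 had an E2F word in a promoter peak of replicate 2; Cdkn2c had it in 2 of its peaks, of which the word in the peak with a score of 41 is shown above. The strongest peak outside the gene, with 75 in replicate 2 and 147 in replicate 1, was at the promoter of Faf1, an adaptor gene. The window of Cdkn2c held 34 and 11 peaks.

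Over all 10 genes the median window held 42.5 peaks in replicate 1, against 28 over all genes, and 10.5 in replicate 2, against 9. Per 100 kb the medians were 33.9 against 20.6 and 8.10 against 6.78. In replicate 2, 25.2% of the peaks counted over the 10 windows lay in the gene's own introns, 21.4% outside protein-coding genes, 20.6% at promoters of other genes and 16.8% at the gene's own promoters. In replicate 1 the share at the gene's own promoters was 8.81% and that outside protein-coding genes 30.9%. Of the 33 peaks in own introns in replicate 2, 14 belonged to Cdk6 and 13 to Ccnd3.

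**Figure D3:**
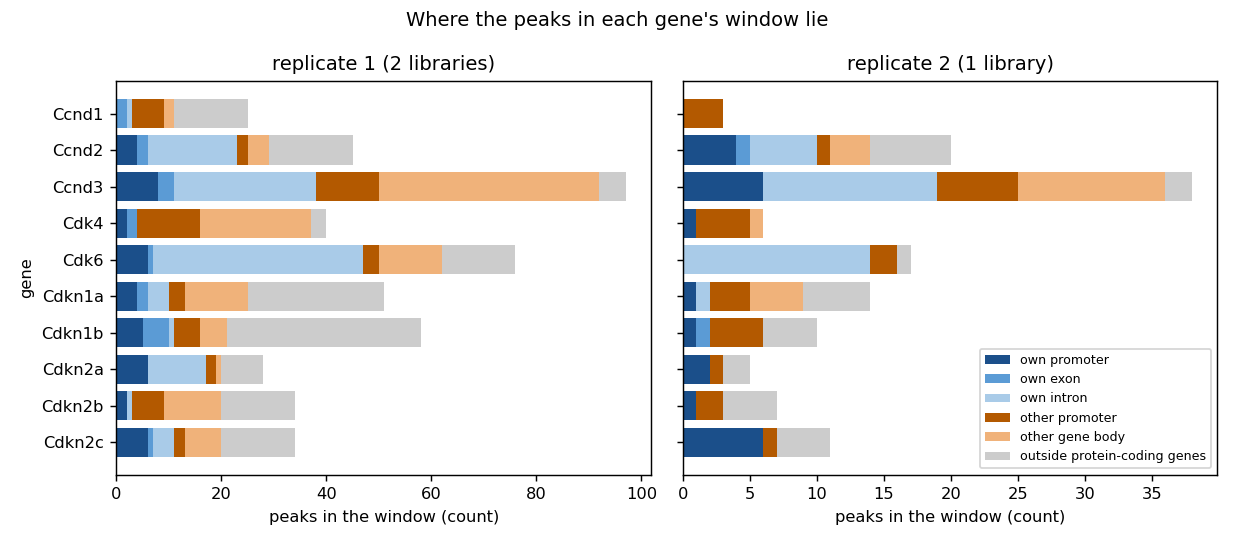
The number of peaks in the window of each gene by where the peak centre lies, for replicate 1 on the left and replicate 2 on the right; each bar is 1 gene, and its parts are the gene's own promoters, exons and introns, promoters and bodies of other protein-coding genes, and the rest. The horizontal scales differ between the lists. In replicate 2 the bars of Ccnd3 (38) and Ccnd2 (20) are the longest and that of Ccnd1 (3) the shortest.

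Of the 126 distinct peaks of replicate 2 in these windows, 115 overlapped a peak of replicate 1 by at least 1 bp, or 91.3% (95% Wilson interval 85.0% to 95.1%, which covers counting error only), against 94.7% of all peaks in the list. Of the 461 distinct peaks of replicate 1, 24.9% overlapped a peak of replicate 2 (21.2% to 29.1%), against 30.2% of the whole list. The overlap rose with the score. Among peaks of replicate 1 in these windows with a score of 108 to 150, 64.2% overlapped a peak of replicate 2, against 11.3% of those with 73 to 107, 0.855% of those with 50 to 72 and 1.96% of those with 25 to 49. The 11 peaks of replicate 2 with no overlap scored 15 to 43 and lay 10 bp to 270 bp from the nearest peak of replicate 1. The scores of the lists rose together over the 115 overlapping peaks of replicate 2. Across peaks, Spearman's rho was 0.88 and Pearson's r was 0.763, given as a description because the peaks come from the same pair of lists and many share a gene. The medians were 133 in replicate 1 and 44 in replicate 2, and the score of replicate 1 was higher in all 115 pairs. The whole lists had medians of 73 and 32 and what the score measures is unknown, so no difference at these genes is read from this direction.

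**Figure D4:**
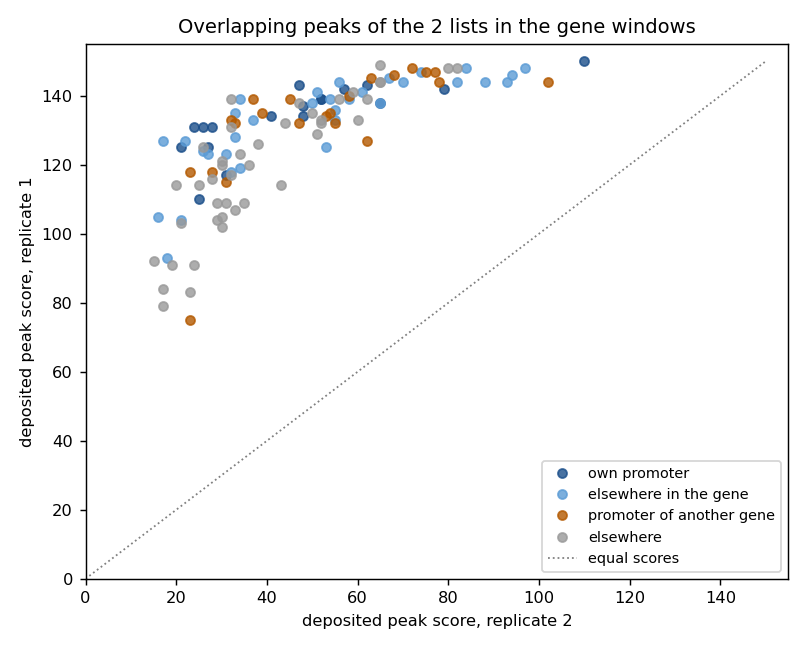
The score in replicate 2 (horizontal) and the score of the overlapping peak in replicate 1 (vertical) for the 115 overlapping peaks in the windows of the 10 genes, coloured by where the peak lies (peaks in both the Cdkn2a and Cdkn2b windows are classed for Cdkn2a); the dotted line marks equal scores. All points lie above the line, and the scores of replicate 1 flatten towards 150 while those of replicate 2 spread up to 110.

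Short binding words were searched on both strands of the 150-bp peaks, and words of different factors may overlap. The GC box GGGCGG, bound by SP and KLF factors, was in a promoter peak of all 8 genes with one in replicate 2; at the level of peaks it was in 13 of 22, or 59.1%, against 37.4% of all promoter peaks in that list. In replicate 1 it was in promoter peaks of 6 of 9 genes, and in 30.2% of peaks against 26.5%. The KLF word CCNCNCCC, which can overlap the GC box, was found for 7 of 8 genes in replicate 2 (54.5% of peaks against 42.5%) and for 8 of 9 in replicate 1 (41.9% against 33.8%). The E-box CACGTG was found for Ccnd2, Cdk4 and Cdkn2c in both lists, in 13.6% of promoter peaks of replicate 2 against 6.37%, and in 6.98% of those of replicate 1 against 4.50%. The GATA words AGATAA and TGATAA, bound by GATA1 in erythroid cells, were found for Ccnd2 and Ccnd3 in replicate 2 (13.6% of peaks against 9.28%), and for Cdkn1b as well in replicate 1 (9.30% against 9.88%). Over 300 bp around each peak centre the replicate 2 share was 13.6% against 15.8%, so the GATA shares lay on either side of the background.

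The E2F words TTCCCGC, TTTGGCGC and TTTCGCGC were found for Cdkn2c in replicate 2 (9.09% of promoter peaks against 4.69%) and for Cdkn2a and Cdkn2c in replicate 1 (6.98% against 3.70%). The CRE TGACGTCA was found for Cdkn2b in both lists, in 4.55% of promoter peaks against 1.98% in replicate 2. The RUNX word TGTGGTT was found for Ccnd3 and Cdk4 in replicate 2 (9.09% against 2.99%) and for Cdk4 in replicate 1 (2.33% against 3.24%). Each of these shares rests on 1 to 3 peaks. CCAAT, bound by NF-Y, was found for 4 of 8 genes in replicate 2 (18.2% of peaks against 25.6%), where the ETS word CCGGAAG (4.55% against 10.2%) and the STAT word TTCNNNGAA (4.55% against 3.63%) were each found for Ccnd2 alone. In replicate 1 the ETS word was found for Ccnd2 and Cdk6, and the STAT word for Cdkn1a and Cdkn2a. The AP-1 word TGANTCA and the CTCF motif were in no promoter peak of the 10 genes in either list, against 3.74% and 0.917% of all promoter peaks in replicate 2; in so few peaks a count of 0 says little. A p53 half-site was found for Cdkn2c in replicate 2 (4.55% against 3.87%) and for Cdk4, Cdkn2a and Cdkn2c in replicate 1 (6.98% against 4.08%). In the 107 other peaks of replicate 2 in these windows GATA words were in 22.4%, against 28.0% of all peaks of that list away from promoters, KLF words in 33.6% against 19.2%, GC boxes in 17.8% against 6.07%, and AP-1 words in 14.95% against 10.03%. Many of these other peaks lie at promoters of neighbouring genes, which the comparison set leaves out, so these shares are not like for like. They include the promoter peaks of Cdkn2a and Cdkn2b, because each gene lies in the window of the other. Those peaks, all with KLF words, are therefore counted among the promoter peaks and among the other peaks.

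Around the 10 genes lie the RB and E2F genes downstream of the D cyclin kinases, the cyclin E and A kinases, and genes for other inhibitors, protein turnover and CDK activation. Of these 28 genes, 27 had a promoter peak in replicate 1, against 58.3% of all genes, and 26 in replicate 2, against 49.4%. Among all CpG-rich starts the shares were 80.5% and 74.8%, and how many of the 28 genes have such starts was not counted. In the list of RB and E2F genes this was 13 of 13 in replicate 1 and 12 of 13 in replicate 2, where E2f6 was without a peak and scored 116 in replicate 1. E2f3 (149 and 104), E2f1 (147 and 97) and E2f8 (147 and 86) had the highest scores there in replicate 2. Among genes of the cyclin E and A kinases, 5 of 6 had a promoter peak in both lists. The exception was Ccna1, a cyclin mainly of germ cells, with none in either. Cdc25a (148 and 100), a phosphatase that activates CDK2, Ccna2 (148 and 83) and Ccne2 (142 and 61) led that list. All 9 genes for other inhibitors, protein turnover and CDK activation had a promoter peak in both lists, led by Cks1b (150 and 127), Cdkn2d (150 and 122) and Fbxw7 (148 and 108). Cdkn2d encodes p19Ink4d, the remaining INK4 inhibitor. Its promoter score in replicate 2 was above that of 99.5% of genes with a promoter peak, whereas those of Cdkn2a, Cdkn2b and Cdkn2c were above 32.3%, 36.6% and 25.8%.

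The count of genes with a promoter peak in both lists was 8 with promoters of 500 bp on either side and 9 with 2500 bp, where the peak at -2122 bp gave Cdk6 a promoter peak in replicate 2 as well. Leaving out a list gives no further check, since the count is then that of the other list alone, 8 in replicate 2 and 9 in replicate 1.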

How the data were processed

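DNase-seq peak and hotspot lists in mm10, per the labels, were analysed as deposited; 1 pair of lists exists per biological replicate, and the caller, aligner and read depth are not given in the sources used here. The peak score is the value the authors deposited in column 7 of the peak files, and its definition is not given. The hotspot value is the deposited −log10 q-value, per its column in the broadPeak format, and ran from 1.30 to 100. Repeated lines (67 and 7) were removed, and chromosomes 1 to 19, X and Y were kept. Peaks were assigned to GENCODE M21 basic protein-coding starts (1000 bp) and gene windows (50 kb). Sequences came from the GRCm38.p6 reference, whose chromosomes contain all peaks. Code (Python 3.11.15, numpy 2.4.6, pandas 2.3.3, scipy 1.17.1) was checked on simulated peaks.

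The genes, the pathway and marker lists and the words searched were chosen with earlier results of these data known. Named outside the 10 genes were pathway genes without a promoter peak in at least 1 list, up to 3 with the highest replicate 2 scores per list, and the protein-coding gene nearest the strongest outside peak. No genes of like pattern were named, because 2 lists give no pattern. Whether the biological replicates came from separate cultures is not stated. Alternatives covered the promoter width, the transcripts, the flank, the score threshold, list length, hotspots and overlap. A result for 1 marker gene is not reported here.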

Additional observations from a re-analysis of the deposited data

How the results depend on the processing

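Of 102 recomputed values, 89 stayed within the limit set for them (a factor of 1.5 for counts and medians, the 95% interval for shares) and 13 moved. The 51 recomputed promoter scores of single genes all stayed within it, as did the counts of genes with a promoter peak. For the scores this says little. Those of replicate 1 began at 120 to 150 in a list whose highest score is 150, so none could rise by a factor of 1.5. A wider promoter or more starts can only raise a score, and a gene that lost its peak would not have been counted. With either replicate left out, the count of genes is that of the remaining list, 9 in replicate 1 and 8 in replicate 2. The median number of peaks per window followed the size of the window and the length of the list. In replicate 1 it was 19.5 with a flank of 10 kb, 74 with 100 kb, 27 with the higher-scoring 50% of the list, 19.5 with the list cut to the length of replicate 2, and 26.5 for hotspots. In replicate 2 it was 3.5 with 10 kb and 22.5 with 100 kb. The share of replicate 2 peaks overlapped was 84.9% when 50% of the peak had to overlap, 97.5% with the higher-scoring 50% of each list and 84.9% with lists of equal length, where the share of replicate 1 peaks overlapped was 54.97%. Over 300 bp around each peak centre, GATA words were found for 6 genes in replicate 1 and E2F words for 2 genes in replicate 2. No paired analysis was possible because no result comes from a test. Depth is unknown, so a peak in replicate 1 alone does not show a difference between the replicates.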
